A study of Mus musculus with 15 samples.

Results

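The small leucine-rich proteoglycans are secreted proteins of the extracellular matrix, built on a core of leucine-rich repeats that in most members carries chondroitin, dermatan or keratan sulfate chains. They bind collagen fibrils and set how fibrils assemble, space and fuse, and several of them also hold growth factors or engage cell-surface receptors. In skin they are made mainly by dermal fibroblasts, and decorin in particular is known as an organiser of dermal collagen that restrains TGF-beta. The 9 genes described here are Dcn (decorin), Bgn (biglycan) and Aspn (asporin) of class I, Lum (lumican), Fmod (fibromodulin), Prelp and Omd (osteomodulin) of class II, Ogn (osteoglycin, also called mimecan) of class III and Podn (podocan) of class V. They were taken by gene symbol from a table of 18929 genes, and all 9 were among the 15369 genes that passed the filter on low counts.

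The study asked whether beads laden with mesenchymal stem cells and printed straight into a wound help skin to heal. RNA was sequenced from 5 groups of 3 mouse skin samples, all with the genotype label WT. Per the study's methods the wound hosts were male balb/c mice 4 to 6 weeks old with a full-thickness excision on the back, 10 mm or 15 mm across. The acellular groups received Matrigel beads without cells. The HDB groups received printed beads of high cell density, loaded with human umbilical cord mesenchymal stem cells at 84000 cells per 10 mm wound or 180000 cells per 15 mm wound, with acellular beads filling the gaps. Normal skin was the fifth group. The methods place sequencing at 4 weeks of implantation and the end of the wound experiment at day 21, so the sampling time is not certain. The counts are on mouse genes, and whether RNA of the human donor cells entered them was not tested.

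Each sample held between 15840551 and 18404188 estimated counts. Levels are given as CPM (counts scaled to a common library size, with TMM), and log2 fold changes come from edgeR's quasi-likelihood test on all 15 samples, where a gene is said to have risen or fallen when its Benjamini-Hochberg adjusted p over all 15369 genes was under 0.05. No label says that replicate numbers stand for separate animals, so the p-values measure only the spread between these samples. Fibroblast markers were read in every sample, with 14 of 14 above 0, at a summed level of 4318 to 29322 CPM. Skeletal muscle markers summed to 55803 to 67248 CPM in normal skin and to 817 to 40956 CPM in the wound samples, so the samples also differed in how much muscle RNA they held. Because whole tissue was sequenced, fewer cells of a type and less RNA per cell cannot be told apart.

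Most of the 9 genes lie beside each other in the mouse genome (RefSeq annotation, build GRCm38.p6). Dcn (chr10:97479500-97518163) and Lum (chr10:97565501-97572703) are neighbours on the plus strand, followed by Kera and Epyc of the same family. Aspn (chr13:49544443-49567565), Omd (chr13:49582462-49592612) and Ogn (chr13:49608015-49624501) stand in a row on the plus strand, with Ecm2 before them. Prelp (chr1:133910304-133930102, minus strand) lies between Optc and Fmod (chr1:134037254-134048280, plus strand). Bgn (chrX:73483601-73495936, plus strand) and Podn (chr4:108014793-108031954, minus strand) lie apart from the rest of the family. In the GENCODE annotation Aspn shares 7 of its 2354 exon bases with the antisense gene Cenpp, and Prelp shares 350 of 3615 with the antisense gene Gm15851. Whether counting used strand is not given in the sources used here, so reads in those stretches could belong to either gene.

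Promoter sequences of 7 of the 9 genes were found in the RefSeq table of GRCm38.p6, with 1 annotated start each but 2 for Podn. The 250 bases before the start are shown for Bgn, which had the highest log2 fold change of the set against normal skin in 3 of the 4 wound groups, and for Ogn and Podn (its first start), which had the 2 lowest in all 4. They are written 5′ to 3′ on the strand of the gene, and capitals mark matches to a GC box (GGGCGG, or CCGCCC when it reads on the opposite strand) or a TATA box (TATAAA, or TTTATA on the opposite strand).
Bgn, chrX:73483351-73483600: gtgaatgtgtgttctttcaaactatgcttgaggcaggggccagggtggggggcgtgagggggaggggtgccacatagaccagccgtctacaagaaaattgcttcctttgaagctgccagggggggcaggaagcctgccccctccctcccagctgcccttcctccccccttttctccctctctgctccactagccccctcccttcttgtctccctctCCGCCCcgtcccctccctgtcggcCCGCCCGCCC
Ogn, chr13:49607765-49608014: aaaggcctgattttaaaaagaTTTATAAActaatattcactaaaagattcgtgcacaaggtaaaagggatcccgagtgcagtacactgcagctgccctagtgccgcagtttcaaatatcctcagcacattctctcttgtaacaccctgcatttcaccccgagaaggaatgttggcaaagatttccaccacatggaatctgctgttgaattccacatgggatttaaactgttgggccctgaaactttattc
Podn, chr4:108031955-108032204, minus strand: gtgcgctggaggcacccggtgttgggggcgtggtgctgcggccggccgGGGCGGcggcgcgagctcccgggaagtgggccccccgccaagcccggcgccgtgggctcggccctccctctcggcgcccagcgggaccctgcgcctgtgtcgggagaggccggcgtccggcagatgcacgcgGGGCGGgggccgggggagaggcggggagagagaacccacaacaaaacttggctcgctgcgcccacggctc
Bgn held 3 GC boxes, all on the opposite strand and beginning 34, 10 and 6 bases before the start, the last 2 of which overlap each other. Podn held 2 GC boxes on its own strand, 202 and 70 bases before the first start, and the window before its second start (chr4:108030987-108031236, GC content 64.0%) held 0 matches. Ogn held no GC box, and its 2 TATA box matches, which overlap, begin 229 and 227 bases before the start. Of 32851 mouse promoters of the same length, 32.7% held a GC box and 12.4% a TATA box on either strand. The GC content was 64.4% for Bgn, 78.0% for the window shown for Podn and 42.0% for Ogn. Matches to letters are a description and not a measurement of binding.

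**Figure D1:**
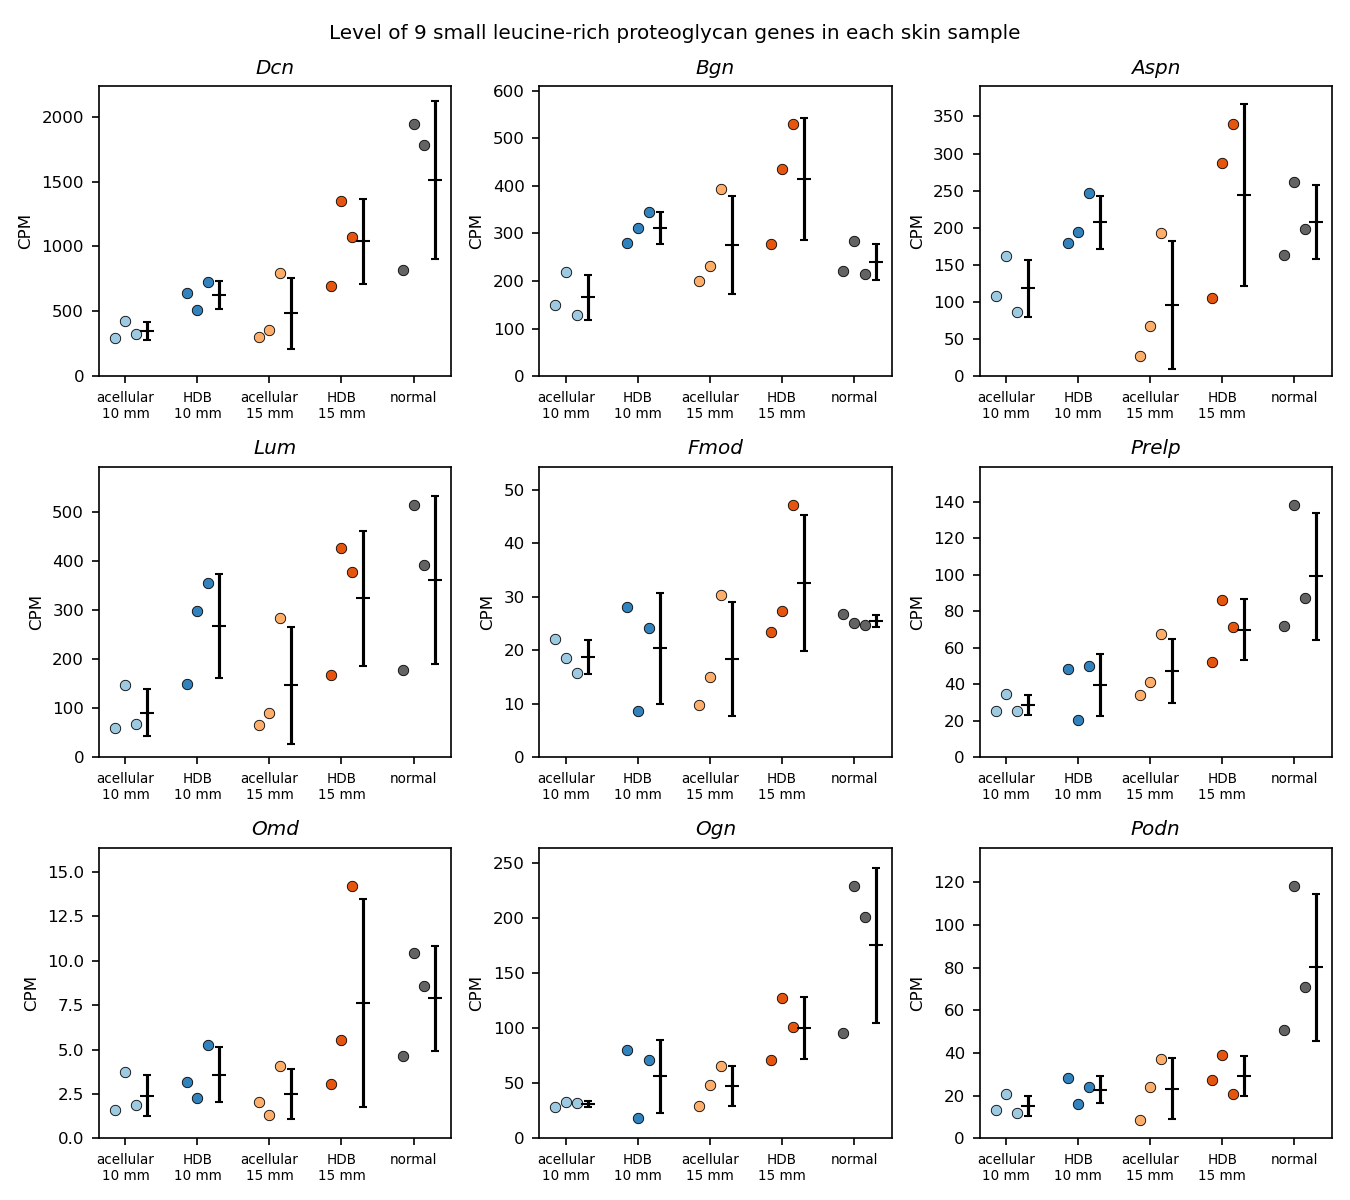
Level of each of the 9 small leucine-rich proteoglycan genes in every sample, in CPM after TMM scaling, with 1 panel per gene and its own axis from 0. Points are samples, and bars give the mean and SD of the 3 samples of a group. Dcn, Ogn, Prelp and Podn sit highest in normal skin, Bgn does not, and the third acellular 15 mm sample is the highest of its group in all 9 panels.

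By group means Dcn was the most abundant member per transcript length in every group. In acellular 15 mm wounds its mean was close to that of Bgn (103.6 and 103.1 CPM per kilobase of the longest transcript). On that measure Bgn was above Dcn in the first and second acellular 15 mm samples, and Lum and Bgn were in the second HDB 10 mm sample. The level of Dcn was 816, 1944 and 1778 CPM in the 3 normal samples. In acellular wounds it was 294, 428 and 326 CPM at 10 mm and 300, 359 and 799 CPM at 15 mm. In HDB wounds it was 641, 509 and 725 CPM at 10 mm and 699, 1348 and 1072 CPM at 15 mm. All 6 acellular samples lay below all normal samples, the HDB 10 mm samples lay between the acellular 10 mm samples and the normal samples with no overlap on either side, and the HDB 15 mm samples overlapped normal skin.

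Bgn, the closest relative of Dcn and a ligand of Toll-like receptors when released from matrix, had another order. It was 222, 284 and 215 CPM in normal skin. In acellular wounds it was 149, 219 and 129 CPM at 10 mm and 200, 232 and 392 CPM at 15 mm. With HDB it reached 279, 311 and 345 CPM at 10 mm and 277, 436 and 530 CPM at 15 mm. The HDB 15 mm group, not normal skin, held the highest mean, 415 ± 128 CPM (SD, n = 3) against 240.2 ± 38.1 in normal skin, and the ranges of those groups overlapped.

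Aspn, which binds collagen and TGF-beta, was 163, 262 and 198 CPM in normal skin. It was 108, 162 and 86.9 CPM in acellular 10 mm wounds and 28.0, 67.9 and 193 CPM in acellular 15 mm wounds. With HDB the level was 180, 195 and 247 CPM at 10 mm and 106, 288 and 340 CPM at 15 mm. The 15 mm groups were wide, with a single high acellular sample and a single low HDB sample, whereas at 10 mm every HDB sample was above every acellular one.

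Among the class II genes, Lum, which regulates fibril diameter and is the keratan sulfate proteoglycan best known from the cornea, was 177, 514 and 391 CPM in normal skin. It was 59.1, 146 and 67.0 CPM in acellular 10 mm wounds and 64.8, 91.1 and 283 CPM in acellular 15 mm wounds. In HDB wounds it was 150, 298 and 354 CPM at 10 mm and 167, 427 and 377 CPM at 15 mm. Acellular 10 mm samples lay under all normal samples and under all HDB 10 mm samples, while both HDB groups overlapped normal skin.

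Prelp, which anchors collagen to basement membranes through heparan sulfate, was 72.1, 138 and 87.2 CPM in normal skin. It was 25.6, 34.9 and 25.4 CPM in acellular 10 mm wounds and 33.9, 41.1 and 67.3 CPM in acellular 15 mm wounds. HDB wounds held 48.3, 20.2 and 50.2 CPM at 10 mm and 52.4, 85.9 and 71.4 CPM at 15 mm. Only the HDB 15 mm group reached into the range of normal skin, and all 3 of its samples exceeded all 3 HDB 10 mm samples.

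Fmod, which shares a collagen-binding site with Lum and is abundant in tendon, had the smallest fitted difference between HDB and acellular wounds at 10 mm. It was 26.8, 25.0 and 24.7 CPM in normal skin, 22.1, 18.5 and 15.7 CPM in acellular 10 mm wounds and 9.75, 15.0 and 30.3 CPM in acellular 15 mm wounds. With printed cells it was 28.2, 8.61 and 24.3 CPM at 10 mm and 23.5, 27.3 and 47.2 CPM at 15 mm. The normal samples were almost alike, and only acellular 10 mm wounds lay wholly below them. Omd, better known from bone and the lowest of the set, ranged from 1.34 CPM in an acellular 15 mm wound to 14.2 CPM in an HDB 15 mm wound, with 4.64 to 10.4 CPM in normal skin. Both acellular groups, at 1.60 to 3.76 CPM for 10 mm and 1.34 to 4.09 CPM for 15 mm, stayed under every normal sample.

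Ogn, a keratan sulfate proteoglycan of loose connective tissue, was 95.7, 229 and 201 CPM in normal skin. It was 28.2, 33.3 and 31.7 CPM in acellular 10 mm wounds and 29.1, 48.8 and 65.3 CPM in acellular 15 mm wounds. In HDB wounds it was 79.9, 18.6 and 71.2 CPM at 10 mm and 71.1, 128 and 102 CPM at 15 mm. The second HDB 10 mm sample lay below every acellular sample, while at 15 mm all HDB samples were above all acellular samples.

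Podn, which binds type I collagen and restrains smooth muscle cell growth, was 50.9, 118 and 71.1 CPM in normal skin. It was 13.3, 20.7 and 11.7 CPM in acellular 10 mm wounds and 8.44, 24.0 and 37.0 CPM in acellular 15 mm wounds. HDB wounds had 28.4, 16.0 and 24.0 CPM at 10 mm and 27.3, 39.3 and 20.8 CPM at 15 mm. Every one of the wound samples, with or without cells, was below every normal sample, and HDB and acellular wounds of the same size overlapped.

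Ordering the 5 group means, 6 genes (Dcn, Lum, Ogn, Prelp, Omd and Podn) were highest in normal skin and 3 (Fmod, Bgn and Aspn) in HDB 15 mm wounds. The lowest group was acellular 10 mm for 7 genes and acellular 15 mm for Fmod and Aspn. Of the 36 pairs of groups next to each other in these orders, 34 overlapped in their sample ranges. The exceptions were Aspn, higher in HDB 10 mm than in acellular 10 mm wounds, and Podn, higher in normal skin than in HDB 15 mm wounds.

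The comparison the study was built around sets HDB against acellular beads. At 10 mm all 9 genes had a higher fitted level in HDB wounds, with log2 fold changes from 0.11 for Fmod to 1.56 for Lum (SE 0.61) and 0.84 (SE 0.40) for Dcn, 0.91 (SE 0.29) for Bgn and 0.80 (SE 0.57) for Aspn. The median over the 9 was 0.80 beside -0.01 over all genes, and 48.2% of all genes were above 0. Sample ranges did not overlap for 4 of the 9, Dcn, Lum, Bgn and Aspn, a pattern seen in this direction in 4.53% of all genes. None of the 9 passed the edgeR test, where 0.0% of all genes did, with 2 members (Lum and Bgn) at an unadjusted p under 0.05 and higher, beside 2.1% of all genes. DESeq2 also called 0 of the 9, and 0.111% of all genes.

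At 15 mm the 9 genes were again all above 0, from 0.33 for Podn to 1.61 (SE 0.61) for Omd, with 1.10 (SE 0.41) for Dcn, 1.35 (SE 0.57) for Aspn and 1.07 (SE 0.48) for Ogn. The median was 1.07 beside 0.00 over all genes, and 50.3% of all genes were above 0. None of the 9 passed the edgeR test, with adjusted p from 0.136 to 0.700, in a comparison where 2.93% of all genes were called, 0.579% higher and 2.35% lower. The unadjusted p was under 0.05 for 4 of them, Dcn, Ogn, Aspn and Omd, beside 7.48% of all genes with a higher level. Ogn alone had ranges that did not overlap, which 8.55% of all genes showed in this direction. No label pairs the samples, but by correlations in these same data (given with the processing) the replicate numbers were read as pairs in this comparison. Within the 3 numbered pairs HDB was above acellular 3 times for 8 of the 9 genes, beside 19.2% of all genes. As the pairs were picked from these values, this is a description and no separate support. For Dcn the differences in log2 CPM were 1.22, 1.91 and 0.42, for Lum 1.37, 2.23 and 0.41, and for Podn, the exception, 1.68, 0.71 and -0.83. With the pairs as a block edgeR still called 0 of the 9. DESeq2 called Dcn (adjusted p = 0.0497) and Omd (adjusted p = 0.0483), in a test that called 4.06% of all genes higher.

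The number of genes called at 15 mm changed with a single library. The third acellular 15 mm sample was the highest of its group for all 9 members, with 799 CPM of Dcn against 300 and 359 CPM in the other two and 283 CPM of Lum against 64.8 and 91.1 CPM. It also carried 17222 CPM of summed fibroblast markers, against 4420 and 5052 CPM in its group, and the lowest summed skeletal muscle markers of all 15 samples, 817 CPM. Left out, Dcn rose by 1.66 (edgeR adjusted p = 0.0233), Lum by 2.05 (0.0406), Bgn by 0.94 (0.0454) and Aspn by 2.35 (0.0210) on the log2 scale, so that 4 of the 9 were called higher where 3.44% of all genes were. Across the alternatives tried, the adjusted p ranged from 0.0233 to 0.471 for Dcn, from 0.0406 to 0.574 for Lum, from 0.0454 to 0.549 for Bgn and from 0.0210 to 0.522 for Aspn. The part of fibroblast content in this sample's levels was not tested.

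Over both sizes, log2 fold changes were 0.97 (SE 0.29) for Dcn, 1.35 (SE 0.43) for Lum, 0.75 (SE 0.21) for Bgn, 0.97 (SE 0.34) for Ogn, 1.08 (SE 0.40) for Aspn and 1.09 (SE 0.43) for Omd, and each of these 6 had an unadjusted p under 0.05, beside 5.32% of all genes with a higher level. Fmod (0.47), Prelp (0.51) and Podn (0.45) were the smallest, and 48.8% of all genes were above 0. The edgeR test called 0 of the 9 and 0.0% of all genes, with adjusted p from 0.261 to 0.495. DESeq2 called Dcn (0.0370), Lum (0.0383) and Bgn (0.0261) higher, as it did 0.796% of all genes. Without the third acellular 15 mm sample edgeR called Dcn, Lum, Bgn and Aspn, each at an adjusted p of 0.0486, beside 0.495% of all genes called higher. A log2 fold change above 0 at both sizes was found for 9 of 9 genes and for 26.7% of all genes. These 9 genes varied together from sample to sample, so they are not 9 separate pieces of evidence.

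The size of the HDB difference was tested against wound size directly. The difference of log2 fold changes, 15 mm minus 10 mm, ran from -0.41 for Lum to 1.04 for Omd, and edgeR called 0 of the 9 (0.0% of all genes) with 0 at an unadjusted p under 0.05 (13.4% of all genes) and adjusted p from 0.647 to 0.967. DESeq2 called 0 of them and 6.29% of all genes. A difference between the sizes was not detected for any of the 9, with SEs of 0.41 to 0.85.

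**Figure D2:**
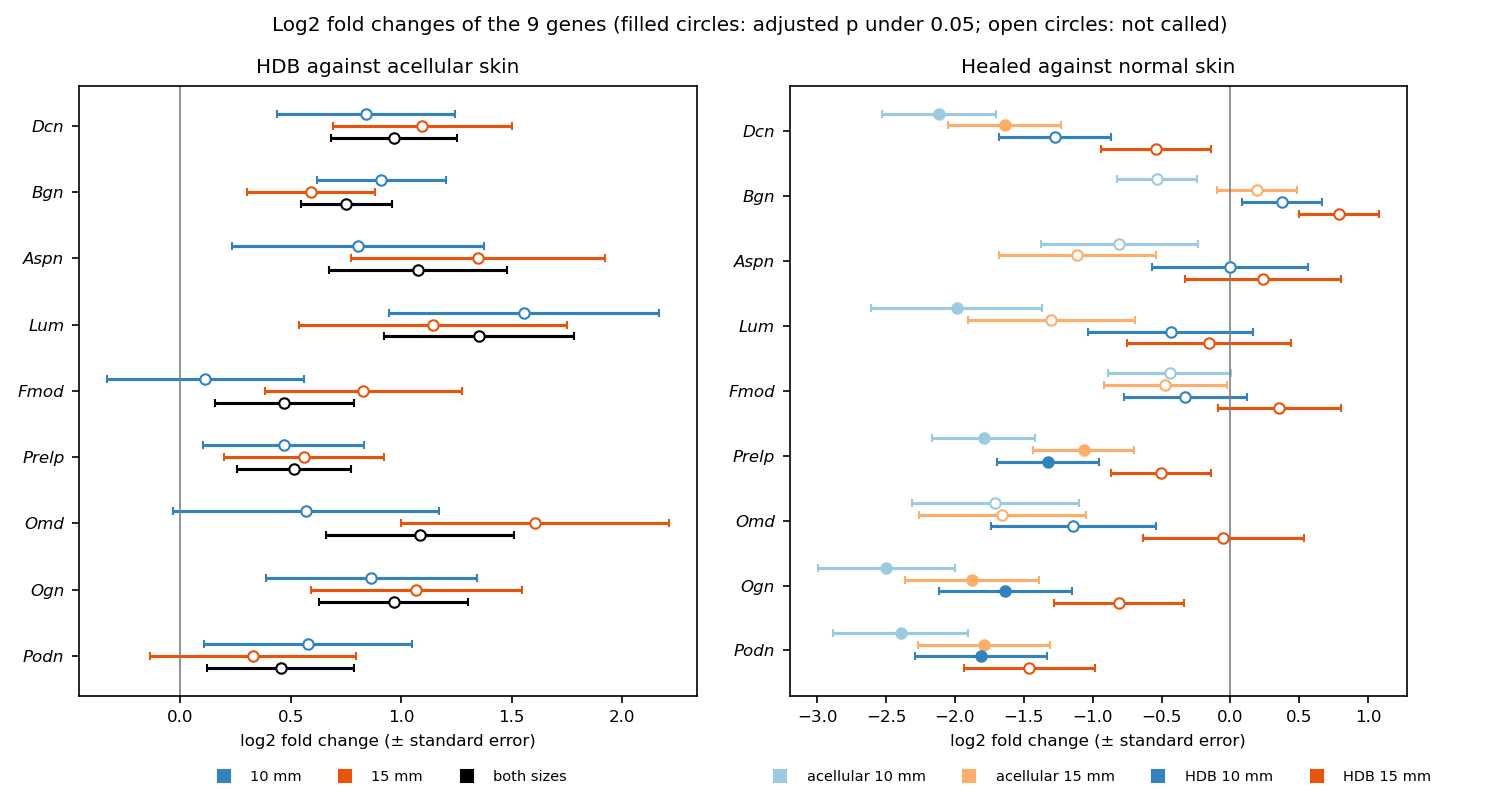
Log2 fold change with its SE for the 9 genes from edgeR, on the left for HDB against acellular wounds (each size and the mean of both), on the right for each wound group against normal skin. Filled symbols passed an adjusted p of 0.05. On the left every value is above 0 and none is filled. On the right Ogn and Podn are the 2 lowest in every wound group, and Bgn is the highest in 3 of the 4.

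Against normal skin, 5 of the 9 genes fell in acellular 10 mm wounds, where 10.6% of all genes were called lower and 20.3% were called in either direction. Ogn fell by 2.50 on the log2 scale (SE 0.50, edgeR adjusted p = 0.00937), Podn fell by 2.39 (SE 0.49, 0.0101), Dcn fell by 2.12 (SE 0.42, 0.00913), Lum fell by 1.99 (SE 0.62, 0.0414) and Prelp fell by 1.79 (SE 0.37, 0.0107). Omd stood at -1.71 (SE 0.61, 0.0627), Aspn at -0.81 (SE 0.57, 0.309), Bgn at -0.53 (SE 0.29, 0.192) and Fmod at -0.44 (SE 0.45, 0.482). Ranges did not overlap for 8 of the 9, all but Bgn, beside 27.2% of all genes in this direction. Dcn, Ogn, Prelp and Podn were called in 15 of 15 settings tried (14 edgeR fits, the one above included, and DESeq2), while Lum was called in 10 of 15. DESeq2 called 6, these 5 and Omd (adjusted p = 0.0155), where it called 18.3% of all genes lower.

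In acellular 15 mm wounds 4 of the 9 fell, in a comparison with 12.6% of all genes called lower and 30.2% called. Ogn fell by 1.88 (SE 0.49, edgeR adjusted p = 0.0153), Podn fell by 1.79 (SE 0.48, 0.0171), Dcn fell by 1.64 (SE 0.41, 0.0133) and Prelp fell by 1.06 (SE 0.37, 0.0451). Values of -1.66 for Omd (SE 0.61, 0.0554), -1.30 for Lum (SE 0.61, 0.119), -1.11 for Aspn (SE 0.57, 0.153), -0.47 for Fmod and 0.19 for Bgn did not pass. Ranges did not overlap for 5 of the 9, beside 21.5% of all genes. The count moved with single libraries: it was 7 without the third acellular 15 mm sample, and 1, Dcn, without the second normal sample, which held the highest level of 8 of the 9 genes in its group. In those fits 14.5% and 8.56% of all genes were called lower. It was 0 when the spread was estimated from these 2 groups alone, where 2.67% of all genes were called lower. Prelp was called in 5 of 15 settings, and total-count scaling, no filter, the replicate block and 5 of the 6 omissions of a sample were among those in which it was not (adjusted p from 0.0101 to 0.178 over the alternatives). DESeq2 called 5, these 4 and Omd (adjusted p = 0.0165), beside 18.2% of all genes called lower.

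In HDB 10 mm wounds 3 of the 9 fell, where 6.23% of all genes were called lower and 12.3% were called. Podn fell by 1.81 (SE 0.48, edgeR adjusted p = 0.0332), Ogn fell by 1.63 (SE 0.48, 0.0464) and Prelp fell by 1.33 (SE 0.37, 0.0385). Dcn was at -1.27 (SE 0.41, 0.0580), and ranges did not overlap for these 4, beside 23.4% of all genes. Omd was at -1.14, Lum at -0.43, Fmod at -0.33 and Bgn at 0.38, and the group means of Aspn were 207 and 208 CPM. DESeq2 called 4, the same 3 and Dcn (adjusted p = 0.0109), beside 13.2% of all genes called lower. The edgeR calls were fragile: 0 of the 9 were called without the second or the third HDB 10 mm sample or without any one of the 3 normal samples. In those fits 0.423%, 0.657%, 1.47%, 2.37% and 0.267% of all genes were called lower, in that order. As this share was 6.23% with all samples, most genes lost their call there. The second HDB 10 mm sample was the lowest of its group for 6 of the 9 genes and had 882 CPM of skeletal muscle markers, against 40956 and 9733 CPM in the other two.

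In HDB 15 mm wounds edgeR called 0 of the 9, with 5.18% of all genes called and 2.51% called lower. Podn at -1.46 (SE 0.47, unadjusted p = 0.00910, edgeR adjusted p = 0.0834) and Bgn at 0.79 (SE 0.29, unadjusted p = 0.0188, edgeR adjusted p = 0.114) were the 2 with an unadjusted p under 0.05, beside 26.9% of all genes. DESeq2 called 1, Podn (adjusted p = 0.0113), and 18.7% of all genes, and Podn was the 1 gene with ranges that did not overlap, beside 22.6% of all genes in this direction. Its adjusted p ranged from 0.0113 to 0.284 over the alternatives. Ogn (-0.81), Dcn (-0.54) and Prelp (-0.50) were below 0 without passing, and Lum (-0.16), Omd (-0.05), Aspn (0.24) and Fmod (0.36) were within their SEs of 0. All 4 comparisons use the same 3 normal samples, so they are not independent of each other. Scaling by total counts instead of TMM moved the median of all genes against normal skin by 0.15 to 0.20 on the log2 scale, and the values above are relative to the TMM scale.

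No difference between wound sizes was called, and in HDB wounds the number of cells given differed with size too (84000 at 10 mm and 180000 at 15 mm). In HDB wounds all 9 genes were higher at 15 mm than at 10 mm, by 0.24 for Aspn to 1.09 for Omd (52.1% of all genes were above 0), and edgeR called 0 of the 9 and 0.0% of all genes. Prelp (0.82, SE 0.37, unadjusted p = 0.0434, edgeR adjusted p = 0.390) was the 1 member at an unadjusted p under 0.05 (12.3% of all genes) and the 1 with ranges that did not overlap, beside 11.0% of all genes. In acellular wounds 7 of the 9 were above 0, from -0.30 for Aspn to 0.73 for Bgn, beside 57.2% of all genes. Here too edgeR called 0 of the 9 and 0.0% of all genes, with Bgn (unadjusted p = 0.0272, edgeR adjusted p = 0.237) the 1 member at an unadjusted p under 0.05 (17.5% of all genes). DESeq2 called 0 of the 9 in either comparison, and 3.93% and 6.62% of all genes.

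The levels of the 9 genes relative to each other are given as a description, since Bgn, the reference of the ratios, was picked with its values known. The ratio of Dcn to Bgn in CPM was 6.27 ± 2.36 (SD, n = 3) in normal skin, with a lowest sample of 3.68. Acellular wounds had 2.15 ± 0.32 at 10 mm and 1.69 ± 0.30 at 15 mm, and HDB wounds had 2.01 ± 0.34 and 2.54 ± 0.53, with a highest wound sample of 3.09. So no wound sample reached the lowest normal sample, and the ranges of HDB and acellular wounds overlapped at both sizes. Relative to Bgn, 6.74% and 20.3% of all genes were lower than in normal skin without overlap in acellular 10 mm and 15 mm wounds. In HDB wounds of those sizes 35.6% and 42.9% of all genes were, so there the pattern was common. For Ogn and Podn, the 2 genes with the lowest fold changes, the ratio to Bgn was 0.431 to 0.937 and 0.229 to 0.417 in normal skin and at most 0.293 and 0.104 in wounds, which restates those fold changes sample by sample. These ratios do not depend on the scaling between libraries. They are of CPM and not per transcript length, so they say how samples differ and not how many transcripts of each gene there were.

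**Figure D3:**
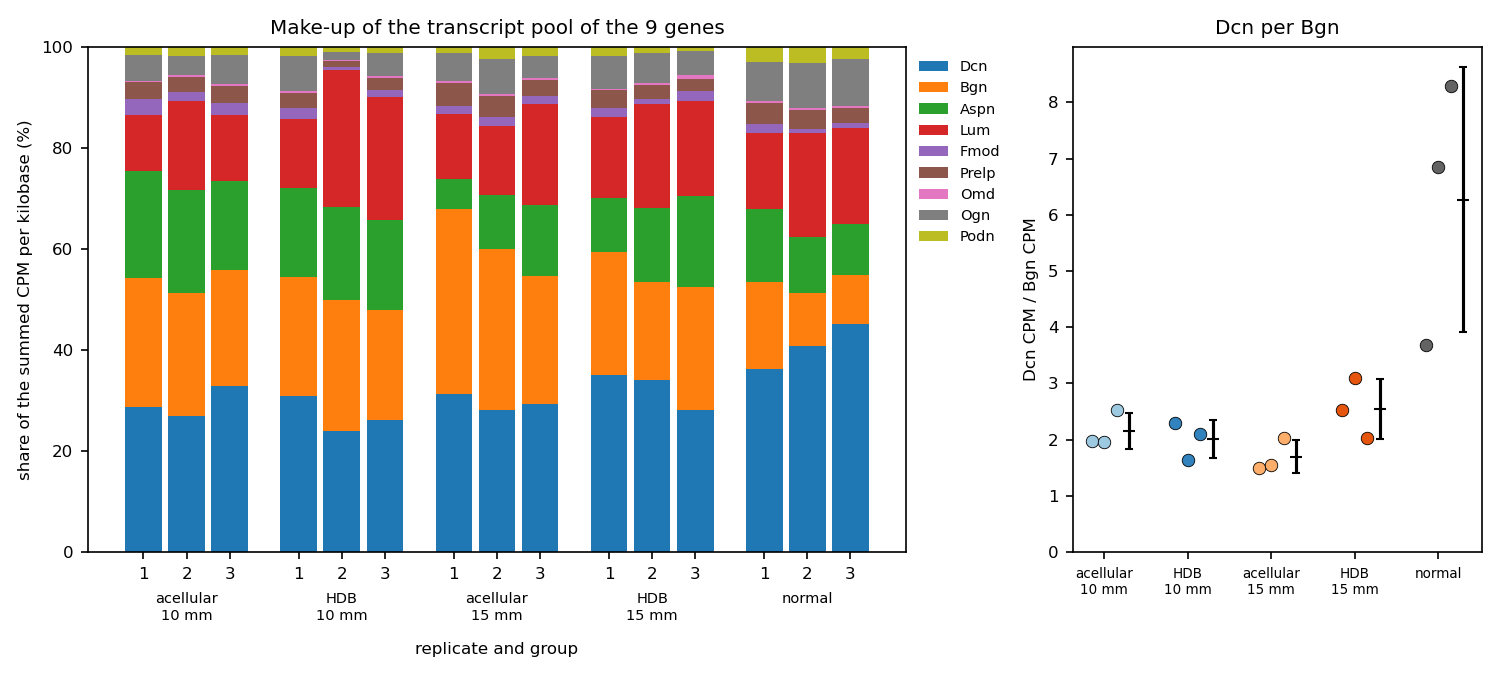
Left, share of each of the 9 genes in their summed CPM per kilobase of the longest GENCODE transcript, 1 stacked bar per sample. Right, the ratio of Dcn to Bgn in CPM per sample. Dcn takes 36.1% to 45.2% of the sum in normal skin and 24.0% to 35.0% in wounds, and Bgn takes 9.61% to 17.3% in normal skin and 19.4% to 36.7% in wounds.

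Per kilobase of the longest transcript, the order of levels over all samples was Dcn (171 CPM per kilobase), Bgn (106), Lum (97.1), Aspn (75.1), Ogn (32.0), Prelp (15.7), Podn (9.38), Fmod (7.41) and Omd (2.13). The order differed between groups. In normal skin Lum stood before Bgn, an order that turned when the median transcript length was used. Aspn stood before Lum in acellular 10 mm wounds (51.0 against 37.1), and Fmod stood before Podn in acellular 10 mm, HDB 10 mm and HDB 15 mm wounds. Of the summed level per kilobase, Dcn held 40.7% ± 4.54 (SD, n = 3) in normal skin and 27.0% ± 3.53 to 32.4% ± 3.77 in the wound groups. Bgn held 12.5% ± 4.21 in normal skin and 22.8% ± 2.91 to 31.3% ± 5.72 in wounds. Ogn held 7.74% to 9.35% in normal samples and 1.60% to 7.04% in wound samples, while Podn, with 2.33% to 3.20% in normal skin and 0.702% to 2.43% in wounds, overlapped at an acellular 15 mm sample. Dcn rests on a long transcript model, and with median lengths its share over all samples was 50.6% in place of 33.2%.

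Collagens are the partners these proteoglycans decorate. In HDB against acellular wounds over both sizes, 12 of 12 collagen genes were above 0 with a median of 0.91, close to the 0.97 of the proteoglycans, and edgeR called 0 of them. Col3a1, the most abundant of the list, was at 1.19 (SE 0.40, edgeR adjusted p = 0.261). Against normal skin Col1a1 (-1.98), Col1a2 (-1.85) and Col14a1 (-1.74) fell in acellular 10 mm wounds, and Col12a1, a fibril-associated collagen, rose by 1.73 in acellular 15 mm and by 2.62 in HDB 10 mm wounds. The mean log2 CPM of the 9 proteoglycans minus that of the 12 collagens lay between -1.09 and -0.67 in normal samples and between -2.59 and -1.58 in wound samples. Relative to that collagen mean, 6 of the 9 were lower than in normal skin without overlap in acellular wounds of 10 mm (5.01% of all genes) and 7 at 15 mm (8.32%), and 7 (18.4%) and 5 (23.0%) in HDB wounds of those sizes. The choice of collagens decided much of this. With only Col1a1, Col1a2 and Col3a1 as the reference the counts in the same order were 2 (0.82%), 0 (0.28%), 4 (2.09%) and 2 (2.33%), with Ogn and Podn lower in 3 of the 4 comparisons. In acellular 10 mm wounds Bgn and Aspn were higher without overlap on that reference, as were 71.3% of all genes, and in the other 3 groups no member was higher.

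Markers of several cell types were also read in the same groups. In HDB against acellular wounds over both sizes, where 48.8% of all genes were above 0 and 0.0% were called, 14 of 14 fibroblast markers were above 0 (median 0.95), as were 10 of 10 adipocyte (0.80), 8 of 8 macrophage (0.70), 7 of 7 tendon (0.59), 8 of 8 endothelial (0.56) and 11 of 11 skeletal muscle markers (0.52). Of the Schwann cell list 4 of 5 were above 0 (0.63), of the myofibroblast list 7 of 8 (0.31), of the epidermal list 6 of 10 (0.06), of the cartilage list 2 of 5 (-0.29) and of the hair shaft list 0 of 9 (-4.61). The pericyte gene Notch3, in the myofibroblast list, was the 1 marker called at a single size, lower with HDB at 15 mm (-0.76, edgeR adjusted p = 0.0252).

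Against normal skin, the share of all genes called lower was 10.6%, 12.6%, 6.23% and 2.51% in acellular 10 mm, acellular 15 mm, HDB 10 mm and HDB 15 mm wounds, and the share called higher was 9.77%, 17.6%, 6.1% and 2.67%. Of the fibroblast markers 7 of 14 fell in acellular and 2 in HDB wounds of 10 mm, with 2 and 0 at 15 mm, and the 2 of 14 in acellular 15 mm wounds are a share near the background. For 10 mm wounds their summed level was 4318 to 6442 CPM with acellular beads and 10516 to 13602 CPM with HDB. For 15 mm wounds it was 4420 to 17222 CPM with acellular beads and 10056 to 21595 CPM with HDB, beside 9309 to 29322 CPM in normal skin. The list includes Col1a1, Col1a2 and Col3a1, and none of its genes was at 0. Endothelial markers fell against normal skin in acellular 10 mm, acellular 15 mm and HDB 10 mm wounds, 8 of 8, 8 of 8 and 6 of 8, from 599 to 695 CPM in normal skin to 108 to 304 CPM in acellular and 155 to 277 CPM in HDB 10 mm wounds. In HDB 15 mm wounds, at 190 to 456 CPM, 0 of 8 passed.

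Macrophage markers fell in the same 3 groups, 5, 4 and 3 of 8, while their sums overlapped, at 483 to 1156 CPM in normal skin, 132 to 1002 CPM in acellular wounds and 320 to 690 CPM in HDB 10 mm wounds. Of 10 adipocyte markers 9 fell and 1 rose in acellular 10 mm wounds (median of the list -2.96), from 10708 to 16256 CPM in normal skin to 1736 to 2522 CPM. In acellular wounds hair shaft markers were higher than in normal skin, with 4 of 9 called at 10 mm and 9 of 9 at 15 mm. Their sum was 17621 CPM in the first acellular 15 mm sample, which was the lowest of its group for 8 of the 9 proteoglycan genes, against 1356 and 28.5 CPM in the other two and 9.05 to 11.4 CPM in normal skin. With HDB the sum was 25.3 to 36.9 CPM at 10 mm and 109 to 541 CPM at 15 mm. In acellular 15 mm wounds 2 of 11 skeletal muscle and 2 of 5 Schwann cell markers were called lower, the former near the background. Of the myofibroblast list 2 of 8 fell in each acellular group and 1 in HDB 15 mm wounds, with 1 higher in each group but acellular 10 mm. Of the epidermal list 3 of 10 were called higher in acellular 10 mm wounds, 1 higher and 2 lower in acellular 15 mm wounds, near the background, and 1 higher in HDB 10 mm wounds. Of the cartilage list 3 of 5 tested rose in each acellular and 2 of 5 in each HDB group, Sox9 and Sp7 among them in all 4, while no tendon marker was called. The part of any cell type in the changes of the 9 genes was not tested.

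**Figure D4:**
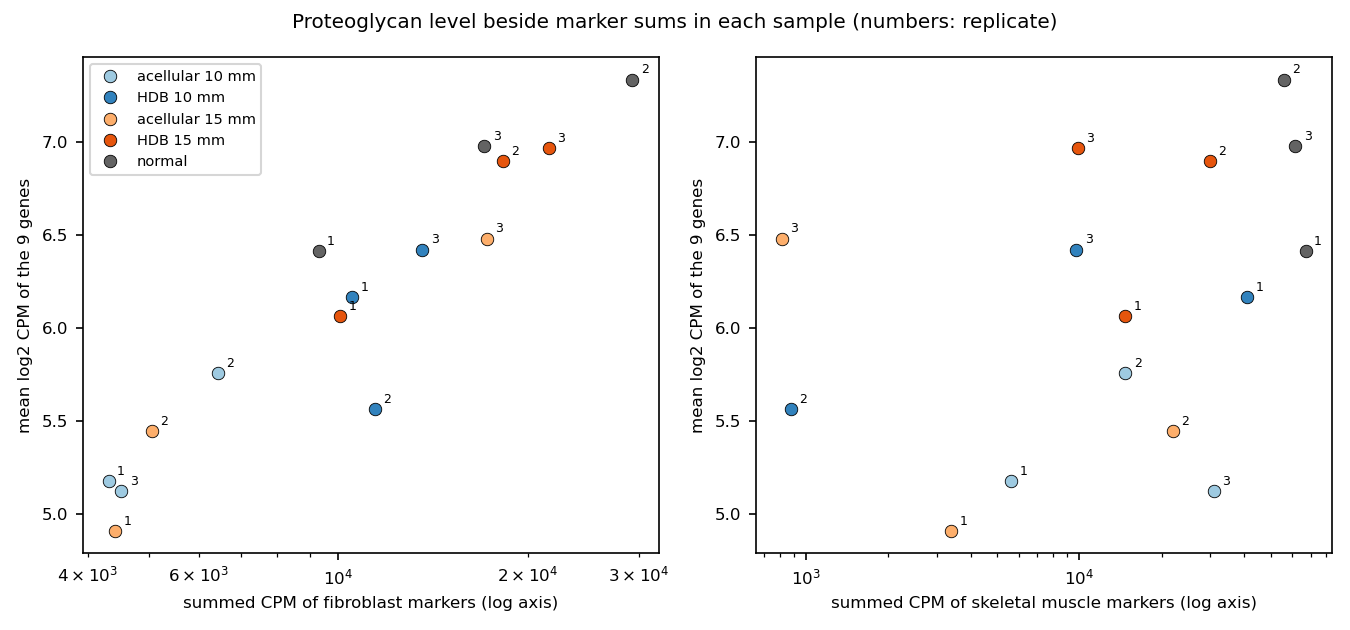
Mean log2 CPM of the 9 genes in each sample against the summed CPM of 14 fibroblast markers (left) and 11 skeletal muscle markers (right), both on a log axis, with 1 point per sample coloured by group. The 3 normal samples hold the 3 highest muscle sums. The 5 lowest fibroblast sums are all from acellular wounds, and the second HDB 10 mm sample has a fibroblast sum of 11441 CPM with a mean of 5.56, below the 5.76 of an acellular 10 mm sample with 6442 CPM.

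Across the 15 samples the 36 pairs of the 9 genes had Pearson correlations of log2 CPM from 0.32 to 0.96, with a median of 0.70. The 4 pairs with no other coding gene between them had a median of 0.78 and the remaining 32 pairs one of 0.69. Dcn followed the mean of the set most closely (0.97) and Bgn least (0.67). After group means were removed, the correlation of Bgn with the mean was 0.86, closer to the values of the other genes. The genes outside the set most like its mean were C1ra (0.975), Galnt16 (0.974), Ms4a4d (0.974), Mxra7 (0.972) and Rcn3 (0.969). For single members the most alike were Sparc for Dcn (0.976), Col3a1 for Lum (0.955), P3h1 for Bgn (0.932), Clec3b for Ogn (0.983), Lrrn4cl for Prelp (0.975), Xlr for Aspn (0.955), Sfrp2 for Omd (0.940), Calcrl for Podn (0.963) and Pex5l for Fmod (0.889). These values describe points that share libraries, tissue make-up and groups, and they carry no test.

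The remaining 8 genes of the family were mostly low. Ecm2, the neighbour of Aspn, was the highest, at 61.6 ± 16.2 CPM (SD, n = 3) in normal skin, 26.7 ± 5.62 and 44.5 ± 14.3 CPM in 10 mm wounds with acellular beads and HDB, and means of 34.7 and 65.2 CPM in the same order at 15 mm. Tsku kept group means between 16.8 and 20.5 CPM. Kera, known from the cornea, stood at 4.09 ± 2.54 CPM with HDB and 1.41 ± 0.33 CPM with acellular beads in 10 mm wounds (unadjusted p = 0.00393, edgeR adjusted p = 1.00), with ranges that did not overlap. Podnl1 rested on 1, 3 and 1 counts in the normal samples and reached 1.94 ± 1.23 CPM in HDB 10 mm wounds, where edgeR called it higher (adjusted p = 0.0220, called in 9 of 14 settings) with ranges that did not overlap. Its level in normal skin is too low for a fold change to be read. Optc, Chad and Nyx had group means under 2 CPM, and Epyc did not pass the filter on low counts.

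The enzymes that build the sugar chains were read from lists. Of 22 genes for chondroitin and dermatan sulfate 21 were tested, and against normal skin edgeR called 2 higher and 2 lower in acellular and 2 higher and 1 lower in HDB wounds of 10 mm. At 15 mm the counts were 2 higher and 3 lower in acellular wounds and 0 in HDB wounds. In that order 20.3%, 12.3%, 30.2% and 5.18% of all genes were called in either direction, so these counts are near the background. Chst14, the dermatan 4-O-sulfotransferase, rose by 0.50 (adjusted p = 0.0367) in acellular 10 mm and by 0.55 (0.0366) in HDB 10 mm wounds. Csgalnact2, which starts chondroitin chains, fell to -0.73 (0.0248) and -0.86 (0.00999) on the log2 scale in acellular wounds of 10 and 15 mm. Xylt2, a xylosyltransferase that attaches the first sugar, rose by 0.70 (0.0373) in acellular 10 mm wounds, and Chsy1, a chondroitin synthase, rose by 0.61 (0.0365) in HDB 10 mm wounds. Of the sulfotransferases, Chst11 rose by 0.88 (0.0117) in acellular 15 mm wounds, and Chst15 fell there by 0.68 (0.0246) and by 0.67 (0.0462) in HDB 10 mm wounds. Fam20b, the xylose kinase and the most abundant of the list, was within -0.15 to 0.10 of normal skin and passed in none of the 4 groups. Of 9 keratan sulfate genes 7 were tested, and edgeR called 1 higher and 2 lower in acellular 10 mm, 1 lower in acellular 15 mm and 1 lower in HDB 10 mm wounds. By the shares of all genes just given, 1 of 7 is below the background in acellular 15 mm and near it in HDB 10 mm wounds. Fut8, the core fucosyltransferase, fell in both acellular groups (-0.86 at 10 mm, adjusted p = 0.0114, and -1.01 at 15 mm, 0.00462) and with HDB at 10 mm (-0.84, 0.0186). In acellular 10 mm wounds Chst1, a keratan sulfate sulfotransferase, fell by 2.56 (0.0270). B3gnt7, which extends the chains, was called higher there (0.0454), from 0.402 to 0.702 CPM in normal skin, a level too low for a fold change to be read. B4galt1, the most abundant of the list, passed in none of the 4 groups. No gene of either list was called by edgeR between HDB and acellular wounds.

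Among 12 genes for enzymes known to cleave these proteoglycans, Adamts4, an aggrecanase that also cuts Dcn, Bgn and Fmod, rose against normal skin in all 4 wound groups. It was at 0.602 to 0.843 CPM in normal skin. In acellular wounds it ranged over 3.42 to 14.5 CPM at 10 mm and 3.97 to 15.0 CPM at 15 mm, and in HDB wounds over 11.1 to 27.3 CPM and 15.9 to 25.5 CPM. No wound sample overlapped normal skin. Its log2 fold changes were 3.84 (adjusted p = 0.00545), 3.89 (0.00358), 4.87 (0.00351) and 4.88 (0.00623) by edgeR, in that order of groups. The low level of Adamts4 in normal skin leaves the size of these fold changes uncertain. Tll2, a relative of the proteinase Bmp1 that trims the Bgn propeptide, fell in the same groups by edgeR (adjusted p = 0.0288, 0.00837, 0.0255 and 0.0313). It was at 2.08 to 4.55 CPM in normal skin and at 0.0538 to 0.935 CPM in wounds, and as the wound samples held 1 to 16 counts of it no fold change is given. Mmp14, the most abundant of the list, rose by 1.52 (0.0480) in HDB 15 mm wounds, and Adamts1 fell by 0.51 (0.0389) in acellular 15 mm wounds. The remaining members of the list did not pass in any of these comparisons. Of all genes 20.3%, 30.2%, 12.3% and 5.18% were called in acellular 10 mm, acellular 15 mm, HDB 10 mm and HDB 15 mm wounds. The share of the 12 genes called was near that share or below it in each group but HDB 15 mm.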

How the data were processed

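Mouse skin RNA was sequenced in 15 samples (5 groups of 3, grouped by GEO's labels). The authors deposited 1 table of estimated counts per gene (expected counts, not whole for 2074 to 2237 genes per sample). The submitters' processing notes name HISAT2 2.0.4, Bowtie2 2.2.5, RSEM 1.2.12 and GRCm38.p6, with no roles. Estimated counts split reads between transcripts and similar genes by a model, and carry no molecular identifiers, so a count is not a separate molecule. Totals were 15840551 to 18404188.

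Counts were rounded, filtered with filterByExpr (15369 of 18929 genes kept) and scaled by TMM, and group means were fitted over all samples in edgeR 4.0.16 (R 4.3.3, 10 residual degrees of freedom), with glmQLFTest and Benjamini-Hochberg adjustment over all genes tested at 0.05. Levels are CPM, with a prior count of 2 for log2 CPM. Correlations are Pearson's on log2 CPM. Promoters came from a RefSeq table of GRCm38.p6, matched by gene symbol. Transcript lengths came from GENCODE, matched by Entrez ID, and covered 98.2% of the genes tested. Exon overlaps were also read from GENCODE. The edgeR script was tested on simulated data: for HDB against acellular at 15 mm it recovered 18.0% of 200 genes changed by 1 on the log2 scale and 79.5% of 200 changed by 2.

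The members and lists were chosen with earlier results of these data known. Named were all 9 members, the 8 other genes of the family, the 5 genes most like the members' mean and the 1 most like each member, and from each list (collagens, chondroitin and dermatan sulfate chain synthesis, keratan sulfate chain synthesis, cleaving enzymes, ligands and receptors, other proteoglycans) the most abundant gene and up to 3 called genes per comparison. Ccn2, Sdc3, Sdc4, Hspg2, Notch3, Sox9, Sp7 and Kdr in acellular 15 mm wounds were named outside this rule, after their values were seen. Marker lists of fibroblast, epidermis, hair shaft, skeletal muscle, adipocyte, macrophage, endothelium, myofibroblast, tendon, cartilage and Schwann cell were read the same way.

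Alternatives were DESeq2 1.42.0 (the study's tool), total-count scaling, no filter, a mean count of at least 50, a fold of at least 2, a fit on only the groups compared, a gene-length trend removed, a replicate block, and each sample left out. The reference of 3 collagens, and leaving out samples in that measure, were chosen after seeing the data. The labels number replicates 1 to 3 in each group without saying that a number marks a shared animal or day. Deviations of same-numbered samples from their group means correlated above 0.1 in every pair only for HDB against acellular at 15 mm (0.397, 0.167 and 0.183). By that rule, which rests on these same data, the numbers were read as pairs there. The block changed no call of the 9 genes in that comparison.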

Additional observations from a re-analysis of the deposited data

How the results depend on the processing

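Dcn, Ogn, Prelp and Podn in acellular 10 mm wounds against normal skin kept their direction and their call in 15 of 15 settings, DESeq2 among them, and over both sizes HDB against acellular kept its direction for all 9 genes. With DESeq2 the number of the 9 genes called was 2 for HDB against acellular at 15 mm, 3 over both sizes and, against normal skin, 6 for acellular 10 mm, 5 for acellular 15 mm, 4 for HDB 10 mm and 1 for HDB 15 mm. Requiring a fold of at least 2 as well changed no count of the 9 in any comparison. A fit on just the 2 groups compared gave 8 for acellular 10 mm, 0 for acellular 15 mm, 1 for HDB 10 mm and 1 for HDB 15 mm against normal skin, with fewer samples to estimate the spread, and called 20.6%, 2.67%, 8.78% and 11.5% of all genes lower. Total-count scaling gave 1 for HDB 10 mm, where 3.99% of all genes were called lower. Leaving out each sample in turn, the number called ran from 0 to 4 for HDB against acellular at 15 mm and over both sizes, where the 4 came without acellular 15 mm replicate 3. It ran from 4 to 5, from 1 to 7 and from 0 to 3 for acellular 10 mm, acellular 15 mm and HDB 10 mm against normal skin. Over those omissions the share of all genes called lower ran from 2.32% to 6.75%, from 6.81% to 14.5% and from 0.267% to 9.81%.

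In the edgeR and DESeq2 fits signs turned only for values that had not passed the test. With single samples left out, the log2 fold change of HDB against acellular ran from -0.17 to 0.50 for Fmod at 10 mm and from -0.069 to 0.84 for Podn at 15 mm. Against normal skin it ran from -0.15 to 0.38 for Bgn in acellular 15 mm, from -0.62 to 0.046 for Fmod and from -0.15 to 0.20 for Aspn in HDB 10 mm, and in HDB 15 mm from -0.47 to 0.19 for Lum, -0.0080 to 0.55 for Fmod, -0.077 to 0.60 for Aspn and -0.88 to 0.32 for Omd. Total-count scaling turned Aspn in HDB 10 mm to 0.20, and Lum and Omd in HDB 15 mm to 0.0061 and 0.13. Aspn in HDB 10 mm was also 0.013 with the stricter filter, 0.011 with the length trend removed and 0.016 with that and the block. Relative to collagens, Prelp in acellular 15 mm turned from -1.02 on the full list to 0.12 on the reference of 3 collagens. Aspn in HDB 10 mm turned from -0.50 to 0.35. On the full list both had been lower than in normal skin without overlap. The cause of these changes was not tested.

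With the replicate number as a block, the number of the 9 genes called was 0 for HDB 10 mm against normal skin, also with the length trend removed, and Aspn there was 0.0048. It was 0 for HDB against acellular at either size and over both, 5 for acellular 10 mm, 5 for acellular 15 mm and 0 for HDB 15 mm against normal skin, where in acellular 15 mm the block dropped Prelp and added Lum and Omd. Against normal skin the fit with the block called 8.37% and 11.0% of all genes lower in acellular 10 mm and 15 mm wounds. In HDB wounds of those sizes it called 3.79% and 0.573% lower. Depth was lowest for Omd, with 23 counts in its lowest sample.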

Other observations

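Proteins that these proteoglycans bind, and proteoglycans of other families, were read as 2 further lists. Of 17 ligands and receptors, edgeR called 3 lower in HDB than in acellular wounds at 15 mm, where 2.35% of all genes were called lower: Egfr (-0.78, adjusted p = 0.0427) and Met (-0.59, adjusted p = 0.0344), both bound by Dcn, and Igf1r (-0.60, adjusted p = 0.0413). In acellular 15 mm wounds against normal skin, Egfr rose by 1.07 (adjusted p = 0.00358) and Igf1r by 0.52 (adjusted p = 0.0152), as did Tgfbr1, a TGF-beta receptor, by 0.44 (adjusted p = 0.0226), while Kdr (-1.51, adjusted p = 0.0287) and the matrix protein Ccn2 (-1.40, adjusted p = 0.0272) fell. These are 5 of 17, beside 30.2% of all genes called there, a share near the background. Both comparisons use the acellular 15 mm samples. In HDB 15 mm wounds, where 5.18% of all genes were called, Met fell by 0.47 against normal skin (adjusted p = 0.0497). Itgb1, the most abundant gene of the list, passed in no comparison. In acellular 10 mm wounds Kdr, the endothelial VEGF receptor, fell by 2.39 (adjusted p = 0.00920), Tlr4, a receptor for soluble Bgn, fell by 1.37 (adjusted p = 0.0215) and Bmp2 rose by 1.18 (adjusted p = 0.0473), beside 8 of 8 endothelial markers called lower there. Of all genes 20.3% were called in that comparison, and the share of the list called was near this.

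Of 18 proteoglycans of other families 17 were tested by edgeR, which called 3 higher and 3 lower in acellular 10 mm, 3 higher in acellular 15 mm, 2 higher and 1 lower in HDB 10 mm and 3 higher in HDB 15 mm wounds against normal skin, beside 20.3%, 30.2%, 12.3% and 5.18% of all genes called. Of these, 2 cell-surface members rose in all 4 wound groups. Sdc1, the syndecan of epithelial cells, rose by 1.56, 1.73, 1.08 and 1.55 (adjusted p = 0.0112, 0.00536, 0.0492 and 0.0294) in acellular 10 mm, acellular 15 mm, HDB 10 mm and HDB 15 mm wounds. The glypican Gpc4 rose by 1.05, 0.91, 0.87 and 0.81 (adjusted p = 0.00433, 0.00372, 0.0106 and 0.0216). In acellular 10 mm wounds Sdc4 rose by 0.71 (adjusted p = 0.0199), and Sdc3 (-0.91, adjusted p = 0.0161) and Hspg2, the basement membrane proteoglycan perlecan (-1.16, adjusted p = 0.0221), fell. Gpc3, another glypican, fell by 1.72 in acellular 10 mm (adjusted p = 0.0123) and by 1.30 in HDB 10 mm wounds (adjusted p = 0.0412). Vcan, a large proteoglycan of provisional matrix, rose by 1.86 in acellular 15 mm wounds (adjusted p = 0.0263), and Hapln3, a link protein, rose by 2.03 in HDB 15 mm wounds (adjusted p = 0.0290). No gene of this list was called between HDB and acellular wounds. The epidermal markers, which bear on Sdc1, summed to 8500 to 10222 CPM in normal skin and 7073 to 21081 CPM in the wound samples, and their part in the result was not tested.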
